A study of Mus musculus with 4 samples.

Results

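Heat shock and chaperonin genes were examined in F123-ESCs, a male mouse embryonic stem cell line from a cross of a S129 mother and a CAST father. The genes were taken by symbol: those that begin with Hsp and a family letter a to h or a digit, those that begin with Dnaja, Dnajb or Dnajc and a digit, Cct2 to Cct8 with the related names that begin alike, and Tcp1, which encodes the remaining subunit of the same chaperonin. This gave 85 of the 24026 genes measured. All samples were untreated F123-ESCs, so the series holds a single group of 4 libraries (replicates 1 to 4), and no heat shock or other stress was applied. The cells had been moved from feeders to feeder-free culture and were harvested about 48 h after plating. Nothing states that the libraries came from separate cultures, so p-values measure the spread between these libraries, which may be technical. Each gene has an RPKM (reads scaled to gene length and to the total of the column) on the S129 and on the CAST allele of each library, thus 8 values, made only from reads that cover a SNP between the strains. A level given below is the mean of both alleles and of the 4 libraries with its SD.

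Chaperones bind unfolded or partly folded proteins and keep them from aggregating. Hsp70 proteins bind and release short hydrophobic stretches in a cycle of ATP hydrolysis, which J proteins (also called Hsp40) start and nucleotide exchange factors such as the Hsp110 proteins complete. Hsp90 acts later, on clients such as kinases and steroid receptors, while small heat shock proteins hold unfolded proteins without ATP. Chaperonins are ring-shaped chambers in which a protein folds in isolation: Hsp60 with its lid Hsp10 in mitochondria, and TRiC (also called CCT), built from 8 different subunits, in the cytosol, where it folds actin and tubulin. Transcription of many of these genes rises in stress through HSF1, which binds inverted repeats of GAA, whereas chaperones of the endoplasmic reticulum (ER) are induced by unfolded proteins in that compartment.

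The libraries held between 34120416 and 56627972 reads assigned to an allele, the fewest in replicate 4. All 10 listed pluripotency markers had at least 1 RPKM, for example Nanog with 84.5 ± 11.4 RPKM (SD, n = 4). Of 10 fibroblast markers, 8 also had at least 1 RPKM, and their summed level lay between 589 and 684 RPKM over the libraries. Among these, the contractile gene Acta2 had 340 RPKM and the collagen gene Col1a2 166 RPKM, whereas Dcn and Lum, which mark connective tissue fibroblasts, had 0.659 and 0.0462 RPKM. The listed muscle markers summed to 18.1 to 21.9 RPKM and the male germ cell markers to 25.4 to 32.9 RPKM. Most of the muscle sum was Des (16.6 RPKM), and the other muscle markers ran from 0.0289 (Myod1) to 1.68 RPKM (Ttn). Sycp3 (17.6 RPKM) and Ddx4 (11.0 RPKM) made up most of the germ cell sum. The other germ cell markers ran from 0.0216 (Tnp1) to 0.113 RPKM (Odf1). The part of other cells in the levels below was not tested, and more cells of a type cannot be told apart from more RNA per cell.

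Of the 85 genes, 66 had at least 1 RPKM (77.6%, against 49.7% of all genes) and 16 had at least 100 RPKM (18.8%, against 4.2%). Their median was 15.1 ± 0.636 RPKM, compared with 0.975 RPKM for all genes. In all 8 columns 4 were listed at 0 (4.71%, against 15.7%): Hspa1a and Hspa1b, which encode the stress-inducible Hsp70, Dnajb8 and Dnajc30. The 5 highest genes, Hspe1, Hspa8, Hsp90ab1, Hsp90aa1 and Hspb1, held 69.6% of the summed RPKM of all members, so that a chaperone of mitochondria, the constitutive cytosolic Hsp70, both cytosolic Hsp90 proteins and a small heat shock protein led the list. A level also depends on the length that entered the RPKM. In 25 of the 81 genes with a recovered length, the annotated exons summed to 2 times that length or more, and on the length of all exons the median of the members was 5.79 RPKM.

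**Figure D1:**
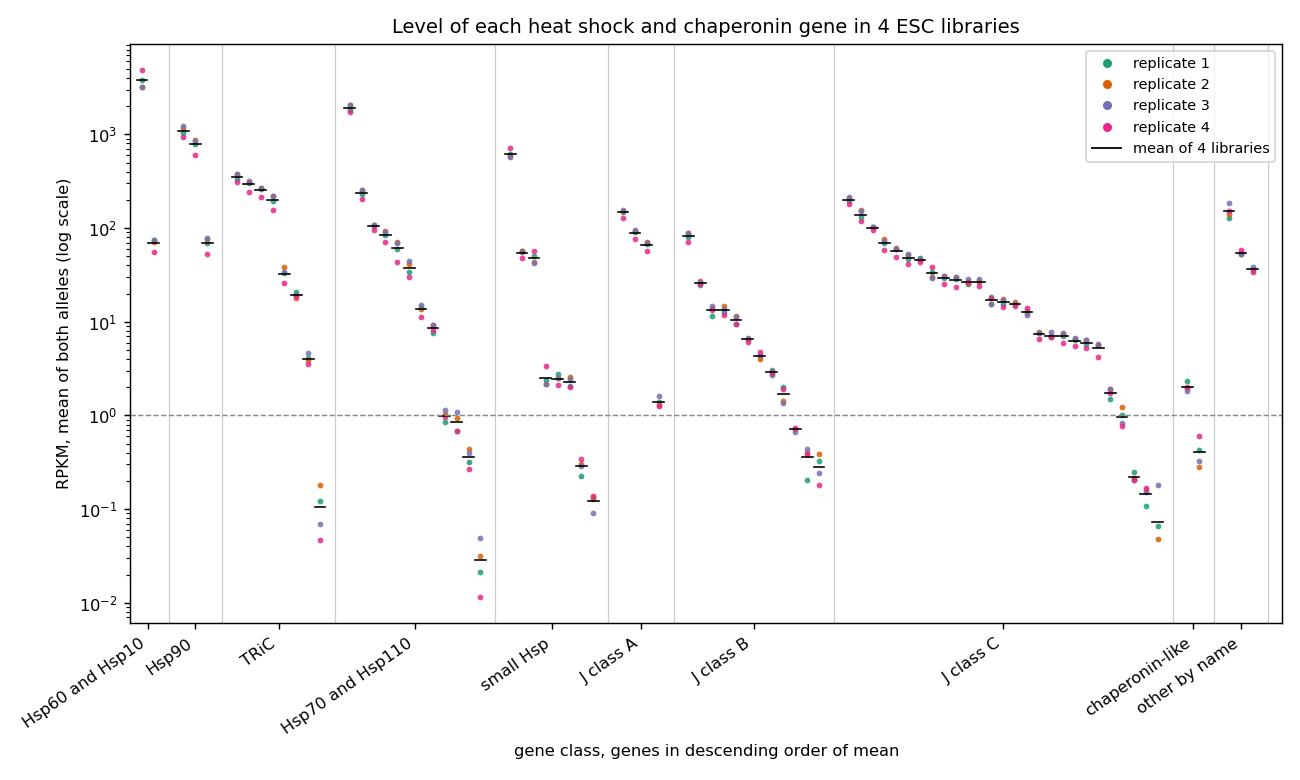
Level of each gene in each library, as RPKM on a log scale, with genes sorted within their class; points are libraries, black bars the mean of 4 libraries, and the dashed line 1 RPKM. The 4 genes listed at 0 throughout and single values of 0 are not drawn; levels run from 3763 RPKM for Hspe1 to below 0.1 RPKM, and the libraries of a gene lie close together compared with the differences between genes.

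Hspe1, which encodes the mitochondrial lid Hsp10, had the highest level of all members. It was measured at 3834, 3208, 3185 and 4826 RPKM in replicates 1 to 4, a mean of 3763 ± 769.6 RPKM (SD, n = 4), and lies at chr1:55088132-55091307 on the plus strand (mm10, GENCODE M21). Its partner Hspd1, encoding Hsp60, had 74.7, 70.6, 73.8 and 55.5 RPKM, a mean of 68.6 ± 8.93 RPKM. Hspe1 was thus above Hspd1 in 4 of 4 libraries, with a difference in log2(RPKM + 0.1) of 5.76 ± 0.46 (SD), or 54.3-fold (exact test over all sign flips, two-sided, p = 0.125, below which 4 libraries cannot go). The ratio was highest in replicate 4, at 6.44, against 5.43 to 5.68 in the other libraries. On the length of all annotated exons the mean difference was 4.96. A ratio of genes also depends on the SNPs that each gene holds, which were not analysed. Both genes share sequence with other annotated transcripts: of all stretches of 100 bases, 11.0% in Hspe1 and 23.9% in Hspd1 were also found elsewhere, pseudogenes among them, so part of their reads is uncertain.

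Hspd1 and Hspe1 stand head to head on chromosome 1, and the annotated starts of the genes overlap. In the RefSeq sequence of this region (GRCm38.p6), HSF1-type repeats overlap each other. The 30 bases at chr1:55088053-55088082, on the plus strand, are shown as an example, and the density of repeats was not compared between members. They lie in an annotated exon, within the bounds of Hspd1. Capitals mark the repeats.
Hspe1: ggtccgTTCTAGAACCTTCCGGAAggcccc
The match ends 71 bases before the RefSeq start of Hspe1. Promoter windows of 300 bases (250 before and 50 after a RefSeq start) were then searched. Hspa8, Hspa9, Hsp90aa1 and Hsp90ab1 were among the members without a window, so they were not searched. Windows were found for 70 of the 85 genes. A run of 3 alternating units GAA and TTC, with any 2 bases between units and on either strand, was present in 6 of their 89 windows (6.74%, of Hspd1, Hspe1, Dnajb6 and Hsph1) and in 0.603% of all 32851 windows. The shorter form of 2 units (GAANNTTC or TTCNNGAA), which the longer form contains, was in 22 of the 89 windows (24.7%) and in 15.1% of all windows. Some windows overlap, so a site can be counted more than once. The Hspe1 window and a window of Hspd1 both hold the bases shown. The windows of Dnajb6 overlap each other, as do those of Hsph1, and distinct sites were not counted. A match of letters is not a bound site, and the cells were not stressed.

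The 8 genes of the TRiC subunits, which enter the ring in equal numbers, did not have equal levels in this table. Cct5 had 336, 381, 377 and 308 RPKM in replicates 1 to 4, a mean of 351 ± 34.97 RPKM (SD, n = 4). Cct6a followed with 295 ± 36.4, Cct4 with 252 ± 25.9 and Cct2 with 198 ± 31.1 RPKM. These 4 genes formed an upper group whose neighbours overlapped in their ranges, although Cct5 was above Cct6a, Cct6a above Cct4 and Cct4 above Cct2 in each of the 4 libraries. Cct8 had 32.7 ± 5.20 and Tcp1 19.1 ± 1.13 RPKM. Cct3 had 4.13, 3.88, 4.60 and 3.53 RPKM, a mean of 4.03 ± 0.448. Cct7 was the lowest, with 0.123, 0.180, 0.0687 and 0.0471 RPKM, a mean of 0.105 ± 0.0597 RPKM. From Cct2 downwards no ranges of neighbours overlapped. The value of Cct7 rests on 17, 22, 8 and 4 reads in replicates 1 to 4, 51 in all, whereas Cct3 had 1515 reads.

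The mean of Cct5 was 3347 times that of Cct7, and 6225 times when the reads were divided by the length of all annotated exons. The choice of length also moved single subunits. The RPKM of Tcp1 was calculated on 329 bp, while its exons sum to 5030 bp, on which it would have 1.25 RPKM, the same as the 1.25 RPKM of Cct3 on all its exons. Exons of Tcp1 are overlapped on the opposite strand by Acat3 and Mrpl18. Because only reads over a SNP were assigned, a level also reflects how many SNPs a gene's exons hold, and SNP positions were not analysed here; their part in the low level of Cct7 and Cct3 was not tested. Cct6b, a testis-expressed paralogue of Cct6a, had 2.02 ± 0.209 RPKM and the chaperonin-like Cct8l1 0.411 ± 0.140 RPKM.

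**Figure D2:**
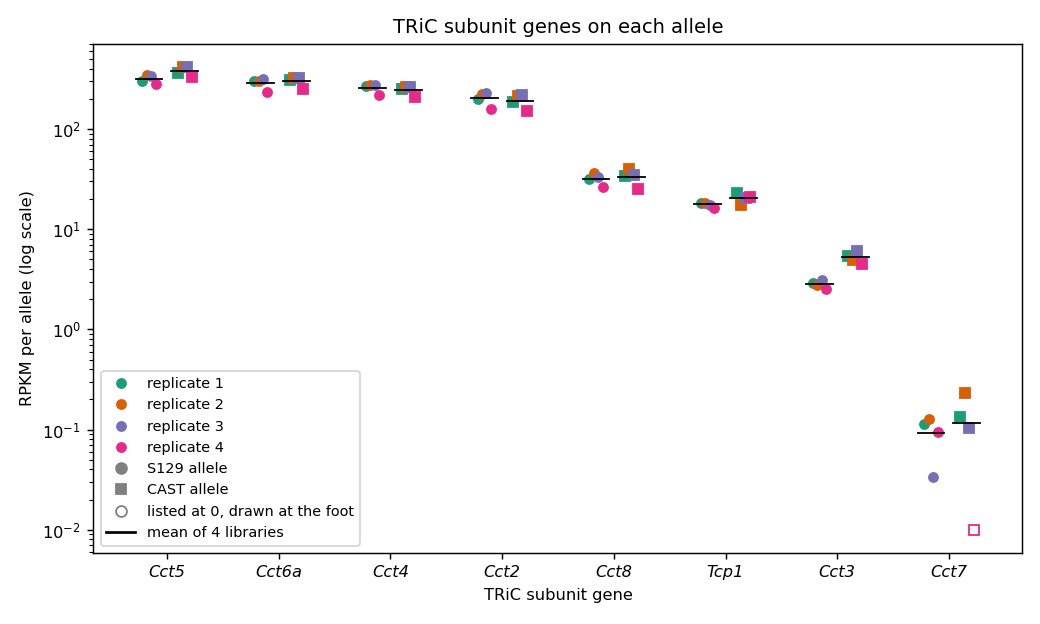
RPKM of the 8 TRiC subunit genes on the S129 allele (circles) and the CAST allele (squares) in each library, on a log scale, with bars for the mean of 4 libraries; the open square is Cct7 on CAST in replicate 4, listed at 0 and drawn at the foot. Cct5, Cct6a, Cct4 and Cct2 lie above 150 RPKM on both alleles, Cct3 is higher on CAST, and Cct7 is below 0.3 RPKM in all columns.

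Among the Hsp70 and Hsp110 genes, Hspa8, the constitutive cytosolic Hsp70, was far above the rest, with 1832, 2044, 2036 and 1737 RPKM in replicates 1 to 4 and a mean of 1912 ± 152.7 RPKM (SD, n = 4). Its 100-base stretches recur in transcripts of other genes to 28.5%. Hspa9, the mitochondrial Hsp70, had 236 ± 25.5 RPKM, and Hspa14, which works at the ribosome, had 104 ± 5.997 RPKM. The Hsp110 genes followed: Hspa4 with 84.5 ± 10.1, Hsph1 with 37.7 ± 6.59 and Hspa4l with 8.50 ± 0.833 RPKM. This order depends on the length used. On all exons Hspa14 would have 46.1 RPKM, below Hspa4 with 70.6 RPKM. Hspa4l, whose level rests on 733 bp of 11792 bp of exons, would have 0.528 RPKM. Hspa5, which encodes the ER chaperone BiP, had 60.2, 71.6, 69.0 and 43.2 RPKM, a mean of 61.0 ± 12.9 RPKM, and its range overlapped those of Hspa4 and Hsph1. Hspa8 was above Hspa5 in 4 of 4 libraries, by 4.99 ± 0.23 on the log2 scale (exact test over sign flips, two-sided, p = 0.125, the smallest possible). With the length of all annotated exons this difference was 4.35. Hspa13, another Hsp70 of the ER, had 13.6 ± 1.65 RPKM.

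The inducible Hspa1a and Hspa1b were listed at 0 in every column. So were the widely used co-chaperone genes Stub1 and Txndc9, and a listed 0 need not be a low level. Hspa1l, the neighbour of both Hspa1 genes and known from testis, had 0.0285 ± 0.0162 RPKM. Of the 100-base stretches of Hspa1a, Hspa1b and Hspa1l, 56.5%, 49.9% and 70.8% are found in another gene, on either strand. These shares are not all likeness among the 3 genes. Gm10501 overlaps 71.9% of the exon bases of Hspa1l on the opposite strand, and Gm20481 overlaps 19.0% of those of Hspa1a. Reads that fit several genes could not be placed with certainty. Hspa2, a testis Hsp70, had 0.850 ± 0.202 RPKM, and the distant relatives Hspa12a and Hspa12b had 0.994 ± 0.115 and 0.357 ± 0.0801 RPKM.

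Both cytosolic Hsp90 genes were abundant. Hsp90ab1, the constitutive form, had 1038, 1157, 1224 and 929 RPKM in replicates 1 to 4 (mean 1087 ± 130.4 RPKM), and Hsp90aa1, the more inducible form, had 786, 867, 858 and 607 RPKM (mean 779.6 ± 120.3 RPKM). The constitutive form was above the inducible form in 4 of 4 libraries, by 0.49 ± 0.098 on the log2 scale or 1.40-fold (exact test over sign flips, two-sided, p = 0.125, the smallest possible). Hsp90aa1 shares 38.0% of its 100-base stretches with other annotated transcripts, and Hsp90ab1 shares 0%. Hsp90b1, which encodes the ER form GRP94, had 69.0 ± 11.1 RPKM, a level near that of Hspa5.

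The small heat shock genes were uneven. Hspb1, encoding Hsp25, had 613, 589, 571 and 715 RPKM in replicates 1 to 4, a mean of 622 ± 64.2 RPKM. With 44.0% of its 100-base stretches also present in the pseudogenes Hsp25-ps1 and Gm9817, this level is uncertain. Hspb8, a partner of BAG3 in selective autophagy, had 54.3 ± 4.61 RPKM, and Hspb11, which encodes a subunit of intraflagellar transport, had 48.3 ± 6.42 RPKM. The genes known for muscle were low: Hspb2 had 2.52 ± 0.571, Hspb6 2.28 ± 0.290, Hspb3 0.289 ± 0.0481 and Hspb7 0.123 ± 0.0223 RPKM. Hspb9, known from testis, had 2.47 ± 0.256 RPKM. The ranges of Hspb2, Hspb9 and Hspb6 overlapped.

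Of the 45 J protein genes, 36 had at least 1 RPKM, with a median over all 45 of 11.9 ± 0.413 RPKM. Class A, which resembles bacterial DnaJ over its whole length, had Dnaja3, of mitochondria, at 147 ± 12.3, Dnaja1 at 89.3 ± 8.66, Dnaja2 at 66.2 ± 6.28 and Dnaja4 at 1.39 ± 0.154 RPKM. In Dnaja4, 41.5% of the 100-base stretches are also in transcripts of Wdr61 on the opposite strand. Dnaja3 is another gene whose level rests on a short length, 487 bp of 3912 bp of exons, on which it would have 18.3 RPKM. Class B is the family of the stress-induced Dnajb1, and its highest member was Dnajb11, an ER cofactor of BiP, with 82.4 ± 7.91 RPKM. In class C, where little but the J domain is shared, Dnajc8, a protein associated with splicing, had 194, 211, 215 and 181 RPKM (mean 200.1 ± 15.9 RPKM). Dnajc7, a cofactor of Hsp70 and Hsp90, had 139 ± 17.3 and Dnajc9, a histone chaperone, had 100.4 ± 3.81 RPKM. Dnajc2 (a ribosome-bound partner of Hspa14), Dnajc10 (an ER reductase) and Dnajc14 had 69.4, 57.2 and 48.2 RPKM, and the other genes of the family were lower. On the length of all exons, Dnajc8, Dnajc7, Dnajc10 and Dnajc14 would have 47.7, 21.9, 11.8 and 5.67 RPKM. Dnajc9 and Dnaja2, at 68.9 and 64.9 RPKM, would then stand above them, so the order of J proteins depends on the length used. Of the genes that share only a name with the chaperones, Hspg2, encoding the matrix proteoglycan perlecan, had 152 ± 23.5 RPKM on a length of 820 bp and would have 8.71 RPKM on its 14307 bp of exons.

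Lists by place and use gave a similar picture of the levels. All 8 listed members of the ER had at least 1 RPKM, with a median of 50.9 RPKM. Of 9 mitochondrial members, 6 had at least 1 RPKM, from Hspe1 down to the listed zero of Dnajc30. Of 10 genes known as stress-inducible, 8 had at least 1 RPKM in these untreated cells, with a median of 53.2 RPKM over the list, and both Hspa1 genes made up the rest. Of 9 members known from testis, 4 had at least 1 RPKM, and of 4 small heat shock genes known from muscle, 2 did; their highest levels were 6.98 RPKM for Dnajc5g and 2.52 RPKM for Hspb2. The sums of the male germ cell and muscle markers rested mostly on Sycp3, Ddx4 and Des. The part of such cells in these levels was not tested.

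The second comparison that the hybrid genome allows is that of the alleles within a library. Differences are S129 minus CAST on log2(RPKM + 0.1), a scale that understates the change of low genes, and were tested by limma over 13341 genes, with p-values adjusted by Benjamini-Hochberg over all of them. Of the 85 members, 70 entered the test (alleles summing to at least 1 RPKM), all on autosomes, and 39 differed at an adjusted p under 0.05 (55.7%, against 61.4% of autosomal genes). S129 was higher for 18 (25.7%, against 28.9%) and CAST for 21 (30%, against 32.5%), shares close to or below those of other genes. When both alleles of a library were instead divided by the same total, the split was 24 and 18. Differences of at least 2-fold were called for 5 genes higher on S129 (7.14%, against 6.29%) and 4 higher on CAST (5.71%, against 5.63%). For 26 genes the 4 S129 and 4 CAST values did not overlap (37.1%, against 43.6%). The median size of a difference was 0.21 for the members and 0.29 for all tested autosomal genes.

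**Figure D3:**
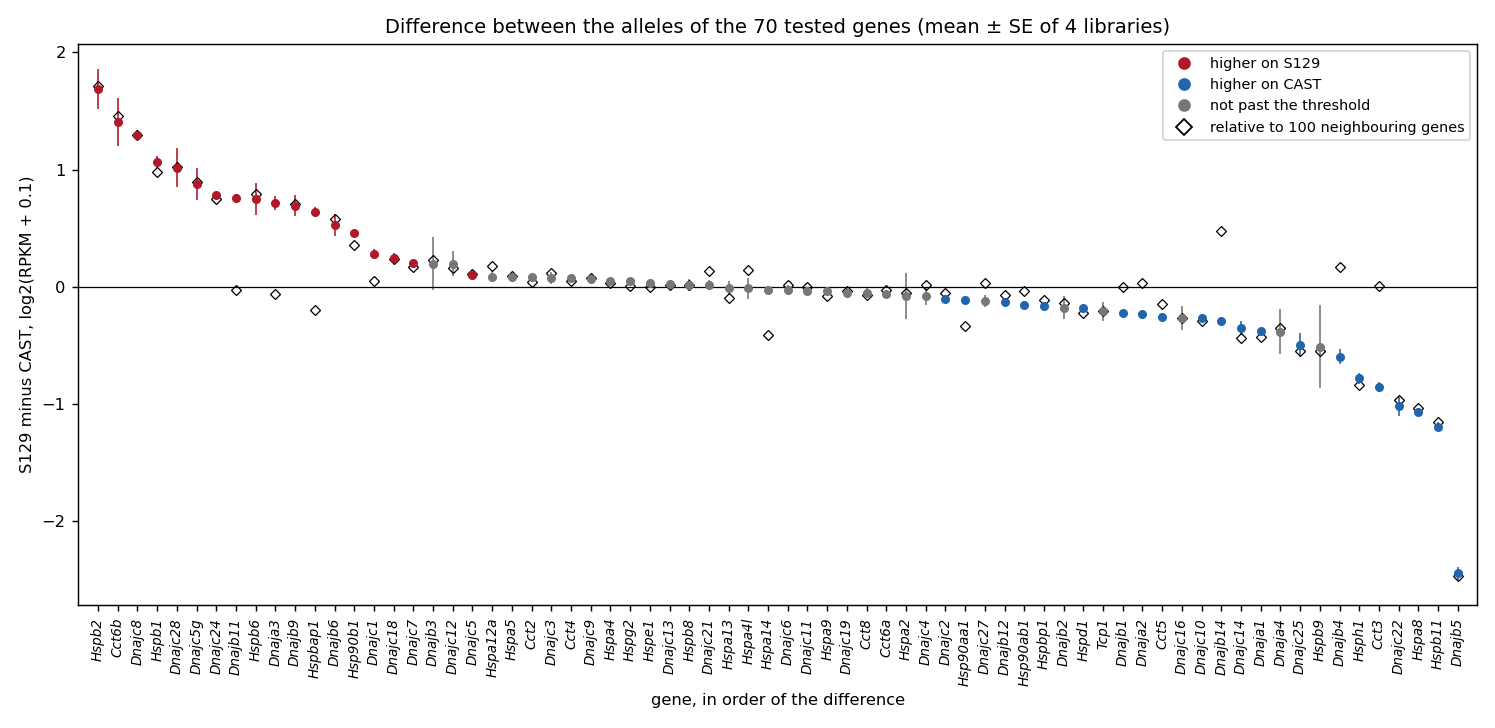
Difference between the alleles, S129 minus CAST on log2(RPKM + 0.1), for the 70 tested genes in order of the difference; filled points with bars are the mean and SE of 4 libraries, coloured by the result of the test, and open diamonds the difference after the median of neighbouring genes was taken off. Dnajb5 stands apart at -2.44, and diamonds leave their points for members on shifted stretches such as Dnajb11, Dnaja3, Hspbap1, Dnajb14 and Cct3.

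The largest difference was that of Dnajb5, a class B J protein. On S129 it had 3.04, 3.18, 3.47 and 2.92 RPKM in replicates 1 to 4, and on CAST 15.9, 19.8, 19.0 and 15.9 RPKM. No S129 value came near the CAST values, and the difference was -2.44 ± 0.053 (SE; limma, adjusted p = 1.46e-05), or 5.44-fold. The gene, at chr4:42949814-42959425 on the plus strand (mm10), shares no 100-base stretch with another gene.

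Hspa8 also differed, in spite of its high level on both alleles. It had 1169, 1345, 1331 and 1109 RPKM on S129 and 2495, 2743, 2741 and 2365 RPKM on CAST, with no overlap. CAST was higher by 2.09-fold, a difference of -1.06 ± 0.032 (SE; limma, adjusted p = 3.76e-05). Hspb1 went the other way, with 815, 786, 777 and 997 RPKM on S129 and 411, 393, 366 and 433 RPKM on CAST, again apart in all libraries. This difference was 1.07 ± 0.050 (adjusted p = 0.000137), or 2.10-fold. Both genes share sequence with other transcripts, as given above, and how reads on it were counted is not known.

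Dnajc8 was higher on S129, with 284 ± 21.1 RPKM against 116 ± 11.3 RPKM (difference 1.30 ± 0.038, SE; adjusted p = 3.5e-05). Hspb2 had 3.51, 3.23, 3.32 and 5.65 RPKM on S129 and 1.25, 1.10, 1.04 and 1.08 RPKM on CAST, and its difference of 1.69 ± 0.17 was the largest in favour of S129 (adjusted p = 0.00135). Of its exon bases, 30.2% are overlapped on the opposite strand by Cryab, its small heat shock neighbour, whose own alleles had 35.5 and 34.6 RPKM and did not pass the test (0.039, adjusted p = 0.59). Cct6b (1.41 ± 0.21, adjusted p = 0.00462) and Dnajc28, a mitochondrial J protein (1.02 ± 0.17, adjusted p = 0.00693), completed the 5 largest differences in favour of S129. Both are low, with means of 2.02 and 0.960 RPKM.

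In favour of CAST, Hspb11 had 29.3 ± 3.74 RPKM on S129 and 67.2 ± 9.26 RPKM on CAST, a difference of -1.19 ± 0.039 (SE; adjusted p = 4.83e-05). Dnajc22, a membrane J protein, had 17.6 ± 0.997 and 35.7 ± 3.33 RPKM (-1.02 ± 0.083, adjusted p = 0.00072). Cct3 came next, with 2.90, 2.80, 3.09 and 2.56 RPKM on S129 and 5.36, 4.95, 6.10 and 4.51 RPKM on CAST (-0.85 ± 0.042, adjusted p = 0.000164). Its groups did not overlap, but its neighbours on the chromosome were shifted as far. Hsph1, an Hsp110, was also higher on CAST, with 27.6 ± 4.62 against 47.7 ± 8.67 RPKM (-0.78 ± 0.044, adjusted p = 0.000235).

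By class, the median size of the difference was 0.081 for TRiC and 0.064 for the Hsp70 and Hsp110 genes, compared with 0.26 for J proteins and 0.91 for the small heat shock genes. Of the 7 tested TRiC subunits, only Cct3 and Cct5 were called, both higher on CAST (28.6%, against 32.5% of autosomal genes, and against 61.4% called either way), and the other 5 differed by at most 0.21. Cct5 had 320 ± 29.7 RPKM on S129 and 382 ± 40.4 RPKM on CAST (-0.25 ± 0.030, adjusted p = 0.00232, and 0.0730 without the pairing of alleles within libraries). Hspe1 had nearly equal alleles (0.037 ± 0.034, adjusted p = 0.394), whereas Hspd1 was lower on S129 (-0.18 ± 0.039, adjusted p = 0.0147). The call of Hspd1 was lost without replicate 2 (adjusted p = 0.0609) and without the pairing (0.295). Between these neighbours, the allele difference of Hspe1 was above that of Hspd1 in 4 of 4 libraries, by 0.22 ± 0.11 (SD; exact test over sign flips, two-sided, p = 0.125, the smallest possible).

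All 3 Hsp90 genes were called, where 61.4% of autosomal genes were. Hsp90b1 was higher on S129, with 79.9 ± 12.8 against 58.0 ± 9.35 RPKM (0.46 ± 0.030, adjusted p = 0.000385). Hsp90ab1 (-0.15 ± 0.029, adjusted p = 0.011) and Hsp90aa1 (-0.11 ± 0.030, adjusted p = 0.0324) were slightly higher on CAST. Neither of these small differences was stable when libraries or the pairing were left out. That of Hsp90ab1 missed the threshold without replicate 2 or 3 (0.0556 and 0.0532) and without the pairing (0.326), and that of Hsp90aa1 missed it without any of the replicates 1 to 4 (0.0835, 0.124, 0.113 and 0.061) and without the pairing (0.600). Of the 10 tested Hsp70 and Hsp110 genes, Hspa8 and Hsph1 were called (20%, against 61.4%), and Hspa9, Hspa14, Hspa4 and Hspa5 differed by 0.083 or less on the log2 scale.

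Of the 6 tested small heat shock genes, 4 were called (66.7%, against 61.4%): Hspb2, Hspb1 and Hspb6 (0.75 ± 0.14, adjusted p = 0.00905) higher on S129 and Hspb11 higher on CAST, and for all 4 the values did not overlap (66.7%, against 43.6%). Hspb8 had equal alleles within its error (0.017 ± 0.052, adjusted p = 0.79). Among the 38 tested J proteins, 12 were called for each allele (31.6%, against 28.9% of autosomal genes for S129 and 32.5% for CAST). Within class A, Dnaja3 was higher on S129 (0.72 ± 0.060), while Dnaja1 (-0.38 ± 0.033) and Dnaja2 (-0.23 ± 0.038) were higher on CAST, and Dnaja4 was not called. The call of Dnaja2 was lost without the pairing (adjusted p = 0.101). Dnajc7 (0.20 ± 0.030) and Dnajc10 (-0.27 ± 0.034) were called, and also lost their calls without the pairing (adjusted p = 0.210 and 0.0712), while Dnajc9 was not called (0.064 ± 0.030). The call of Dnajc2 (-0.10 ± 0.031, adjusted p = 0.0413) was lost without any of the replicates 1 to 4, with adjusted p between 0.0713 and 0.140, and without the pairing (0.508). Of the 8 tested stress-inducible genes, Hspb1 was higher on S129, 6 were higher on CAST (75%, against 32.5%) and Hspe1 was not called. The 6 were Hsph1, Dnaja1, Dnajb1, Dnajb4, Hspd1 and Hsp90aa1. Only Hsph1 and Dnaja1 were called the same way in all 12 alternative settings. Dnajb1 and Dnajb4 kept their call in 11 of these settings, Hspd1 in 10 and Hsp90aa1 in 5. Relative to neighbouring genes, 4 of the 8 were called for CAST (50%, against 29%).

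Some members lie on stretches where most genes were shifted to an allele. To describe this, the median difference of the 50 tested genes on each side, members left out, was taken off. The same median was taken off every library as if it were known exactly. The p-values relative to neighbours therefore leave out the spread among the neighbours. On chromosome 16 the neighbours of Dnaja3, Dnajb11 and Hspbap1, which encodes a protein that binds HSPB1, were shifted to S129 by 0.78, 0.79 and 0.83. On chromosome 3 the neighbours of Cct3, Dnajb14 and Dnajb4 were shifted to CAST, with medians of -0.86, -0.77 and -0.77. Relative to these neighbours, Dnaja3 (-0.059), Dnajb11 (-0.030) and Cct3 (0.0071) did not stand apart. Dnajb14, an ER membrane J protein, had a difference of -0.29, and of 0.48 relative to its neighbours (limma, adjusted p = 0.000668), so its direction turned, as did that of Hspbap1 (0.64 and -0.19, adjusted p = 0.0134).

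Smaller shifts of neighbours touched other members. Hsp90aa1, among neighbours shifted to S129 by 0.22, was lower on S129 relative to them (-0.33, limma, adjusted p = 0.0012). Hsp90ab1, Dnaja2 and the stress-induced Dnajb1, whose difference was -0.23, had -0.032, 0.031 and -0.0009 relative to their neighbours and were no longer called. Hspa14 on chromosome 2 had equal alleles (-0.023, adjusted p = 0.556) among neighbours shifted to S129 by 0.38, and relative to them it was lower on S129 (-0.41, adjusted p = 0.000793). In all, 31 members were called relative to their neighbours, 44.3% against 58.3% of autosomal genes, with 16 higher on S129 (22.9%, against 29.2%) and 15 higher on CAST (21.4%, against 29%). Dnajb5 (-2.47), Hspb2 (1.71), Dnajc8 (1.30), Hspb1 (0.98), Hspb11 (-1.15) and Hspa8 (-1.04) kept their direction and call. Of the 39 calls, 20 were made the same way under all alternatives that gave a value for the gene, 12 higher on S129 and 8 on CAST.

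The spread between libraries was the remaining comparison. The median SD on log2(RPKM + 0.1) was 0.15 for the 66 members with at least 1 RPKM and 0.13 for all 11946 such genes. Replicate 4 was the lowest library for 47 of the 66 members (71.2%, against 55.1% of all genes), and without it the median SD was 0.082 for the members and 0.093 for all genes. The 5 largest SDs were those of Hspa5 (0.33), Hspb2 (0.29), Hspe1 (0.28), Dnajb3 (0.27) and Hsph1 (0.26). They did not go the same way: relative to its mean, replicate 4 was at -0.47 for Hspa5 and at -0.30 for Hsph1, but at 0.38 for Hspe1 and 0.43 for Hspb2. Dnajb3 was high in replicates 1 and 4 and low in the others.

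The direction went with exon length. Of 7 members with fewer than 1500 bp of exons in all, 4 were highest in replicate 4, and their median deviation there was 0.21. Of the 59 longer members, 46 were lowest in replicate 4, with a median deviation of -0.18. Over all genes with at least 1 RPKM the same medians were 0.10 for the 1345 genes under 1500 bp and -0.12 for the 6288 genes of 4000 bp or more. The fewest reads were those of replicate 4 as well, and depth and length cannot be told apart from the culture here.

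**Figure D4:**
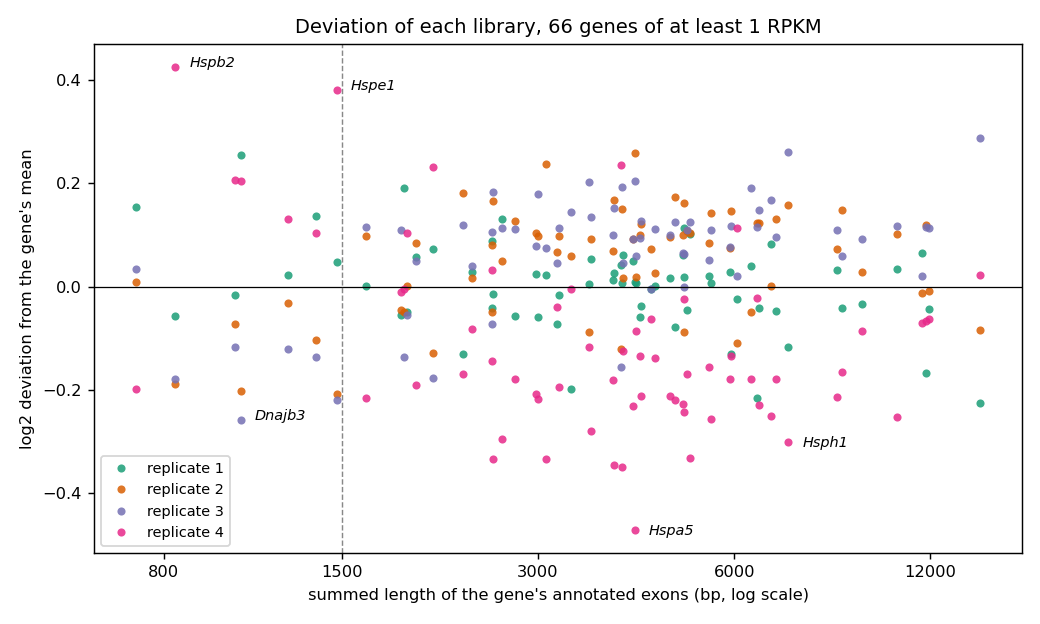
Deviation of each library from the mean of its gene, on log2(RPKM + 0.1), against the summed exon length of the gene in bp (log scale) for the 66 genes with at least 1 RPKM; colours are libraries and the dashed line marks 1500 bp. Replicate 4 lies mostly below 0 for longer genes, down to -0.47 for Hspa5, and mostly above 0 to the left of the line, up to 0.43 for Hspb2.

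Hspa5 was at 64.5% of the mean of the other libraries in replicate 4, followed by Hsp90b1 at 72.2%, Hsp90aa1 at 72.6%, Dnajc3, a J protein that restrains the kinase PERK, at 73.1%, Cct8 at 73.2% and Cct2 at 73.3%. ER chaperones and cytosolic ones thus both stood at the low end. The other ER members were Hspa13 at 79.1%, Dnajc10 at 81.0%, Dnajb11 at 83.4%, Dnajc1 at 93.6% and Dnajb9 at 103.0%. Over the 8 ER members the median deviation in replicate 4 was -0.24, compared with -0.23 for the 7 TRiC subunits and -0.17 for all 66 members, so the ER list was not far from the others. Of the 70 genes with a promoter window, Hspa5, Hsp90b1 and Dnajc3 held a full ER stress element (CCAAT, any 9 bases, then CCACG, on either strand), present in 3 of the 89 windows (3.37%) and in 0.119% of all windows. These sequences (RefSeq, GRCm38.p6) are shown because they are the matches to this element among the members with a window, all of ER chaperones: Hspa5 at chr2:34772019-34772048 (plus strand), Hsp90b1 at chr10:86705510-86705694 (minus strand) and Dnajc3 at chr14:118937682-118937931 (plus strand), each written along its gene with the element in capitals.
Hspa5: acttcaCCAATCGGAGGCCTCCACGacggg
Hsp90b1: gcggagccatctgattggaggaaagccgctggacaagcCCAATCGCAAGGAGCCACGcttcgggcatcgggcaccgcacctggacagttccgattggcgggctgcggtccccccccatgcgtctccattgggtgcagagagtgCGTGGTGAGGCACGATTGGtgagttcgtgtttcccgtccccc
Dnajc3: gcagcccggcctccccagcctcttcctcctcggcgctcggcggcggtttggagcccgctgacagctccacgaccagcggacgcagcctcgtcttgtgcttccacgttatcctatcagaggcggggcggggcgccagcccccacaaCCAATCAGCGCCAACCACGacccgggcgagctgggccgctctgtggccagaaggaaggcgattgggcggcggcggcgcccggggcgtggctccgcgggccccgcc
The elements end 46, 88 and 86 bases before the RefSeq starts of Hspa5, Hsp90b1 and Dnajc3, and Hsp90b1 holds 2, facing each other. Each gene was looked at for this element after its values were known. These letters are those of the reference strain, not of the S129 or CAST allele, and their part in the library spread was not tested.

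The co-chaperones and regulators that work with these proteins were read from a list of 49 genes, all in the table. Of these, 43 had at least 1 RPKM. The highest were Pfdn1 (497 ± 26.2 RPKM) and Pfdn5 (243 ± 23.4), subunits of prefoldin, which hands actin and tubulin to TRiC, Fkbp4 (471 ± 33.7) and Sugt1 (320 ± 20.0), which work with Hsp90, and Hsbp1 (342 ± 47.2), which binds HSF1. Hsf1 itself had 16.4 ± 0.443 RPKM and was higher on CAST (-0.31 ± 0.030, adjusted p = 0.00126), and Hsf2 had 23.5 ± 2.82 RPKM and was not called (0.18 ± 0.067, adjusted p = 0.0786). Of the 44 tested autosomal genes of the list, 16 were higher on S129 and 14 on CAST (against 28.9% and 32.5% of autosomal genes). The largest differences were Unc45b (2.34), a myosin chaperone at 0.744 RPKM, Ptges3 (1.16), which encodes the Hsp90 cofactor p23, and Pfdn6 (1.08) for S129. For CAST they were Hscb (-1.84), a mitochondrial J protein of iron-sulfur assembly, Bag2 (-0.67) and Ppid (-0.54). Ppid lies on chromosome 3, parts of which were shifted to CAST. Values of single co-chaperones relative to their neighbours are not given here. Vbp1, a prefoldin subunit on the X chromosome, was read almost only from S129, the single X of these male cells.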

How the data were processed

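RNAseq of 4 libraries of F123-ESCs was analysed. The authors enriched polyA RNA, prepared stranded libraries, removed ribosomal reads, trimmed the others (Trimmomatic 0.40, per the submitters' processing notes), aligned them with STAR to mm10 masked at SNPs and divided them by SNPsplit. The deposited values are RPKM per gene, allele and library; the program and annotation behind the counts are not given in the sources used here. The authors also deposited each allele's average RPKM and log10 of this average plus 1, which were not used. Each column was matched to its library by allele and number, and 0 columns belonged to another sample.

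Reads, totals and gene lengths were recovered from the steps between RPKM values: 20134 of the 20243 genes above 0 (99.5%) gave whole reads in every column, within 0.02 reads. A read on a kilobase stands for 0.0348 to 0.0598 RPKM. Genes were matched to GENCODE M21 (mm10). Alleles were compared by limma 3.58.1 (R 4.3.3) on the differences within libraries, for genes whose alleles summed to at least 1 RPKM. Both values of a pair were taken as reads of the same library from the numbers of their columns. Deviations correlated at 0.146 to 0.234 for columns of one number and at -0.187 to 0.151 for others (11946 genes). These ranges overlap, so the correlations alone do not settle the match. Pairs of genes were compared by exact sign-flip tests. Shared sequence was counted as 100-base stretches found in transcripts of another gene. On simulated data, limma, Dixon's criterion and the recovery of reads were tested. Python 3.11.15 was used for the rest.

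The members and gene lists were chosen with earlier results of these data known. All genes of the Hsp70, Hsp110, Hsp90, Hsp60, small heat shock and TRiC classes may be named; of J proteins the 10 highest, class A and those at 0; of all members the 5 largest called differences each way, the 5 largest SDs and those past Dixon's criterion; of the co-chaperones the 5 highest, the 3 largest differences each way, Hsf1 and Hsf2. Other members (Dnajb1, Dnajb4, Dnajb6, Dnajb14, Hspbap1, Hspg2, Dnajc5g), Pfdn6 and Cryab were named after their values were seen.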

Additional observations from a re-analysis of the deposited data

Results flagged for a closer look

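In each set of 4 values, the gap between an extreme library and its nearest neighbour was compared with the range. Of 145 quantities (levels of members, allele differences, medians of classes and ratios), 7 had such a gap, and chance alone gives about 1 in 20, or 7.25. Replicate 4 was the extreme library for 5 of them. Its level stood below the others for Dnajc3 at 4.16 RPKM, Cct4 at 213.7 RPKM, Hspb8 at 47.4 RPKM and Dnajc10 at 48.7 RPKM. The other libraries of these genes lay between 5.65 and 5.75, 260 and 268, 56.0 and 57.4, and 59.5 and 61.1 RPKM. For levels of all genes with at least 1 RPKM the share with such a gap was 5.54%, and for the members it was 6.06%.

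The allele difference on the log2 scale stood apart in replicate 1 for Dnajc2 at -0.056 and for Dnajc25 at -0.85, and in replicate 4 for Dnajc9 at 0.10.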

How the results depend on the processing

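For single members, 729 of the values under alternative settings kept direction and side of the threshold, 47 fell below it, 19 rose above it and 31 turned in direction. Of the 31, 7 were of members called in the main comparison, all with the median of neighbouring genes taken off: Dnajb14 (0.48), Hspbap1 (-0.19), Dnajb11 (-0.030), Dnaja2 (0.031), Cct3 (0.0071), Dnajb4 (0.17) and Dnaja3 (-0.059). The other 24 were of 15 of the 31 members not called, and 0 of them were called under the alternative. With neighbouring genes taken off they were Dnajc27 (0.034), Dnajc4 (0.013), Dnajc6 (0.020), Hspa4l (0.15) and Hspe1 (-0.0021). Without division by the allele total they were Cct8 (0.0017), Dnajc11 (0.024), Dnajc19 (0.0060), Dnajc6 (0.027), Hspa13 (0.043), Hspa14 (0.032), Hspa4l (0.041) and Hspa9 (0.020). With a library left out, the sign changed within the ranges of Dnajb3 (-0.031 to 0.37), Dnajc21 (-0.010 to 0.057), Dnajc6 (-0.058 to 0.010), Hspa13 (-0.065 to 0.038), Hspa2 (-0.30 to 0.047), Hspa4l (-0.11 to 0.038) and Hspb8 (-0.035 to 0.044). Without the replicate block, which here is the pairing of alleles within a library, 12 members and 9 co-chaperones were higher on CAST in place of 21 and 14, and 11 of the 39 calls of members were lost. Leaving out each library in turn gave 16 to 21 members higher on CAST and 17 higher on S129, and 11 to 12 and 15 to 17 co-chaperones.

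With the length of all exons, medians were 5.79 RPKM for all members, 85.6 for TRiC, 651 for Hsp90, 4.45 for Hsp70 and Hsp110, 2.32 for small heat shock genes and 5.37 for J proteins, and the ratio of the highest to the lowest TRiC gene was 6225. On S129 alone the medians were 16.4 for all members, 3.49 for small heat shock genes and 10.4 for J proteins, and on CAST alone 15.8, 2.26 and 13.1. The median SD between libraries was 0.20 with values rescaled to the same sum and 0.082 to 0.17 with a library left out, lowest without replicate 4. The TRiC ratio was 2926 to 4276 with a library left out. Among the other 141 values, members higher on S129 numbered 14 to 24 and the log2 ratio of Hspa8 to Hspa5 was 4.32 on S129 alone and 5.47 on CAST alone. Low genes limit the comparison most: Cct7 rests on 51 reads, and 15 members were too low to be tested.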
